A study of Homo sapiens with 5 samples.

Results

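The regions described here were the ATAC peaks at annotated gene starts, taken with a margin of 1000 bp, in nuclei of 5 mixed human lung adenocarcinoma cell lines. Of the 158342 peaks called in the larger portion of the experiment, 45154 (28.5%) lay that close to the start interval that the deposited feature table gives for a gene, and they are called member peaks below. These 45154 peaks held 54.4% of the 63920767 ATAC counts. Of the 36601 genes listed, 22900 had at least 1 member peak.

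The lines were A549, H2228, H1975, H838 and HCC827, each grown on its own without treatment in RPMI medium with serum, frozen, and then mixed. RNA and open chromatin were read from the same nuclei with the 10x Multiome kit, which gives both molecules of a nucleus a shared barcode, and the barcoded droplets were split into a portion of 80% and a portion of 20%. Each portion gave 1 RNA and 1 ATAC library, so no difference described here has a replicate and no p-value is given. In the 80% portion 6557 nuclei had a median of 8784 ATAC counts and 13306 RNA UMIs (unique molecular identifiers, each of which marks 1 captured molecule). Epithelial markers had RNA in all 5 groups of nuclei formed from the RNA, but at unequal levels. KRT18 ranged from 718 to 5823 CPM, the counts scaled to a total of 1000000 per group, and CDH1 from 4.71 to 200 CPM.

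In ATAC-seq a transposase cuts the DNA that is not covered by nucleosomes, so a peak is a stretch of accessible chromatin. A gene start that is used is usually accessible because transcription factors and the polymerase machinery keep nucleosomes away from it. Many gene starts, above all those of genes that every cell needs, lie in CpG islands, which are stretches rich in CG dinucleotides. Starts of genes with a narrow range of tissues more often lack such an island.

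The label of a gene start was only partly borne out. Of the start intervals 54.9% were at most 1 bp long, but 20.5% were longer than 1000 bp, because an interval can run from the first to the last alternative start of its gene, and the longest reached 2222.661 kb. Such an interval covers introns and any enhancers in them. Against the transcript starts of GENCODE v44 on hg38, 19760 member peaks (43.8%) overlapped a transcript start and 25394 (56.2%) did not. Of the 25394 peaks without one, 21828 were near intervals over 1000 bp only. The gene with the most member peaks was PDE4D, a phosphodiesterase that breaks down cyclic AMP, with 113. Values are therefore given for both kinds of member peak. The feature table and GENCODE v44 shared 99.4% of gene IDs, and 96.9% of these intervals met the GENCODE starts of the same gene.

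Sequences from 7 member peaks are shown, to set starts seen in the most nuclei beside peaks that stood out in 1 group of nuclei. The first 3 come from the 3 member peaks found in the most nuclei and the other 4 from the peak with the highest ratio in each of 4 of the 5 RNA groups. Each is the hg38 reference, 5′ to 3′ on the strand of its gene, from a part of the peak that overlaps no annotated exon, and capitals mark the motifs searched for. The windows of CIC, HNRNPL, TOMM40, HLA-DQB1 and ZNF135 end 1 bp before a transcript start. Those of SOX9-AS1 and EGFR lie 36946 bp and 20814 bp downstream of one.
CIC (chr19:42268337-42268536, plus strand): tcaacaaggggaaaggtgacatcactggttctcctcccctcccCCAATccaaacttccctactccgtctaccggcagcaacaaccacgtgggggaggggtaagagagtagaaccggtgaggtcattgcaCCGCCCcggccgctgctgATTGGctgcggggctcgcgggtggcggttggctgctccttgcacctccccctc
HNRNPL (chr19:38849987-38850186, minus strand): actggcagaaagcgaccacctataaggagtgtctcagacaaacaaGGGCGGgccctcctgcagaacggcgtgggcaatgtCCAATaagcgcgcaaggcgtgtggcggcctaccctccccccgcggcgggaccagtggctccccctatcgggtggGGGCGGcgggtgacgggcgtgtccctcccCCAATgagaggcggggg
TOMM40 (chr19:44890416-44890568, plus strand): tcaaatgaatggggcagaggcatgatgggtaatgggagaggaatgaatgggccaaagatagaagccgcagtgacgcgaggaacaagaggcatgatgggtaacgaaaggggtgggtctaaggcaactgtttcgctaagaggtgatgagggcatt
HLA-DQB1 (chr6:32668384-32668583, minus strand): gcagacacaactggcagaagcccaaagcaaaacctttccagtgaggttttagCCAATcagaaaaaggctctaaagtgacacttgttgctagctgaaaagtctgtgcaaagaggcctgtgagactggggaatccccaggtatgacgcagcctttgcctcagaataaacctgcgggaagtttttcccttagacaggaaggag
SOX9-AS1 (chr17:72183573-72183772, minus strand): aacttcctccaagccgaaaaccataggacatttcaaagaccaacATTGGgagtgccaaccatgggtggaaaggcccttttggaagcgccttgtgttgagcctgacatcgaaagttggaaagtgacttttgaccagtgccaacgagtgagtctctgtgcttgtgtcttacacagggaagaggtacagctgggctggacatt
ZNF135 (chr19:58059039-58059238, plus strand): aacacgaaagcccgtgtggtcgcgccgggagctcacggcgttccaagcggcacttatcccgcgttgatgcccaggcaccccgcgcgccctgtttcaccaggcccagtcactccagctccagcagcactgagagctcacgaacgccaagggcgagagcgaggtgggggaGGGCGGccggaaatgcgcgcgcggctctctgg
EGFR (chr7:55130537-55130736, plus strand): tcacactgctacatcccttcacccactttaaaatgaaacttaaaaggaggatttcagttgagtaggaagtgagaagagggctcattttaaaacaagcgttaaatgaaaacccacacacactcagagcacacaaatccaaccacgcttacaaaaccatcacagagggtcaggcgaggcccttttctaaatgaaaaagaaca
The capitals are the GC box GGGCGG (bound by SP factors) and the CCAAT box CCAAT (bound by NF-Y), on either strand. A match is only a match of letters. The TOMM40 and EGFR windows held none of the motifs. The HNRNPL and CIC windows held 17 and 11 CG dinucleotides in 200 bp, and the TOMM40 window 5 in 153 bp. Among the windows from peaks that stood out in 1 group, ZNF135 held 23 in 200 bp, SOX9-AS1 4, EGFR 3 and HLA-DQB1 2. The broadest peaks thus did not have the most CG dinucleotides in these windows. GC content was 68.5% in the ZNF135 window and 41.5% in the EGFR window.

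Breadth, the percent of the 6557 nuclei with at least 1 count in a peak, had a median of 2.04% over the member peaks, with quartiles of 0.763% and 7.47%. The median of the other 113188 peaks was 0.976%. Member peaks with a transcript start had a median of 7.70%, against 1.05% for member peaks without one. The latter were close to the other peaks. Not all other peaks lay away from transcript starts, since 5108 of them (4.51%) overlapped one in GENCODE v44. The median of these 5108 was 1.57%. Peak width did not separate the sets, with medians of 884 bp and 888 bp for member peaks and other peaks. In counts per kb of peak the medians were 1198 for member peaks with a transcript start, 157 for those without and 144 for other peaks.

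**Figure D1:**
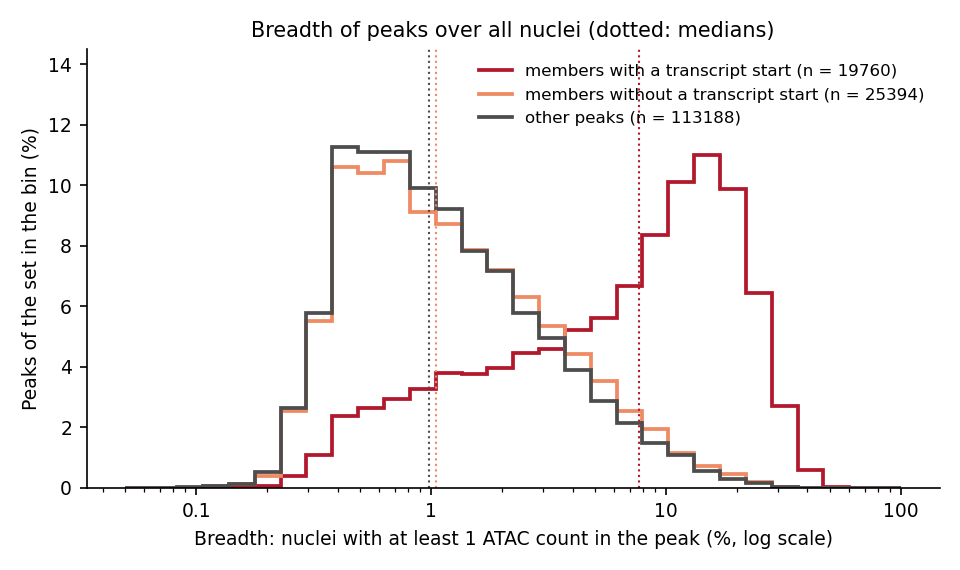
Percent of the peaks of each set (vertical axis) by breadth, the percent of 6557 nuclei with a count (horizontal axis, log scale), for member peaks with and without a GENCODE v44 transcript start and for all other peaks, with medians as dotted lines. Member peaks with a transcript start have their median at 7.70%, and those without one lie almost on the other peaks, at 1.05% against 0.976%.

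At least 10% of nuclei had a count in 8896 member peaks (19.7%) and in 2551 other peaks (2.25%). Of all peaks that broad, 77.7% were member peaks, and 8201 of the 8896 held a transcript start. So did 430 of the 2551 other peaks. At the other end, 14539 member peaks (32.2%) were found in under 1% of nuclei, and 16.6% of these held a transcript start. At the edge of the window the median breadth changed less than the share of broad peaks. In the last 100 bp of the margin the median breadth was 1.97%, and in the next 100 bp, which is outside, 1.60%. At least 10% of nuclei had a count in 7.05% of the 553 peaks just inside and in 3.12% of the 481 just outside.

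Peaks near more than 1 start were broader. Member peaks near 1 gene had a median breadth of 1.69%, and those near 2 genes 10.4%. Among peaks with a transcript start, those near coding genes on both strands had a median of 15.8% (1461 peaks), against 8.58% near coding genes on 1 strand (15086 peaks). Near no coding gene the median was 1.19%, against 2.49% near a coding gene. The share of a nucleus's ATAC counts that fell in member peaks had a median of 54.8%. By decile of nuclei in ATAC counts, this share was 56.2% in the first, 58.2% in the second, 52.8% in the ninth and 53.5% in the tenth. It also differed between the groups of nuclei formed from the RNA, with medians from 50.2% to 59.1%. Among nuclei with 8000 to 12000 ATAC counts the medians of the groups ran from 49.7% to 57.8%.

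The 6 broadest member peaks were found in 46.3% to 53.1% of nuclei. CIC, which codes for a transcriptional repressor, had the broadest, at chr19:42268107-42269345, with counts in 53.1% of nuclei (exact 95% binomial interval 51.8 to 54.3). The peak of HNRNPL, a splicing regulator, at chr19:38849956-38850823, was found in 51.2% (49.9 to 52.4). The peak shared by TOMM40, the channel of the mitochondrial import complex, and the antisense gene AC011481.2, at chr19:44890416-44891314, was found in 50.1% (48.9 to 51.3). The other 3 were the peaks of SF1 at 47.9%, of MBOAT7 and TSEN34 at 47.2% and of SETD3 and CCNK at 46.3%. All 6 peaks held a transcript start. These intervals, and all those given below for single peaks, cover counting error only.

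RNA at these broadest peaks covered a wide range. The CIC gene had 9.33 CPM of RNA over all nuclei, whereas HNRNPL had 96.8 CPM. Nor was a broad peak equal in every group. The nuclei fell into 5 groups by RNA alone, called RNA clusters 0 to 4, with 2482, 1462, 1450, 836 and 327 nuclei. They were led by MEG3, ALDH1A1, AC069277.1, DHRS2 and AC090578.1, respectively, and EGFR was second in cluster 4. No cluster was assigned to a line. The CIC peak had 173, 347, 189, 55.7 and 88.1 ATAC CPM in clusters 0 to 4. It was highest in cluster 1 and lowest in cluster 3, and its counting intervals did not overlap between these clusters. The SETD3 and CCNK peak, with 149, 122, 137, 126 and 104 CPM, was more even. Its counting intervals did not overlap either between cluster 0 (143 to 156) and cluster 4 (90.5 to 120). At such counts, separate intervals therefore do not set the CIC peak apart.

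Sequence changed with breadth along the member peaks. In the central 300 bp, the median GC content was 45.7% for member peaks in under 1% of nuclei and 68.0% for those in at least 10%. The ratio of CG dinucleotides observed to those expected from base composition had medians of 0.186 and 0.870 in these sets. A ratio of at least 0.6, a common mark of a CpG island, was found in 6.09% and 88.3% of them. Over all peaks of the matrix on the main chromosomes the share was 13.2%. Among member peaks with a transcript start alone the share was 23.8% for those under 1% of nuclei and 92.9% for those in at least 10%.

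**Figure D2:**
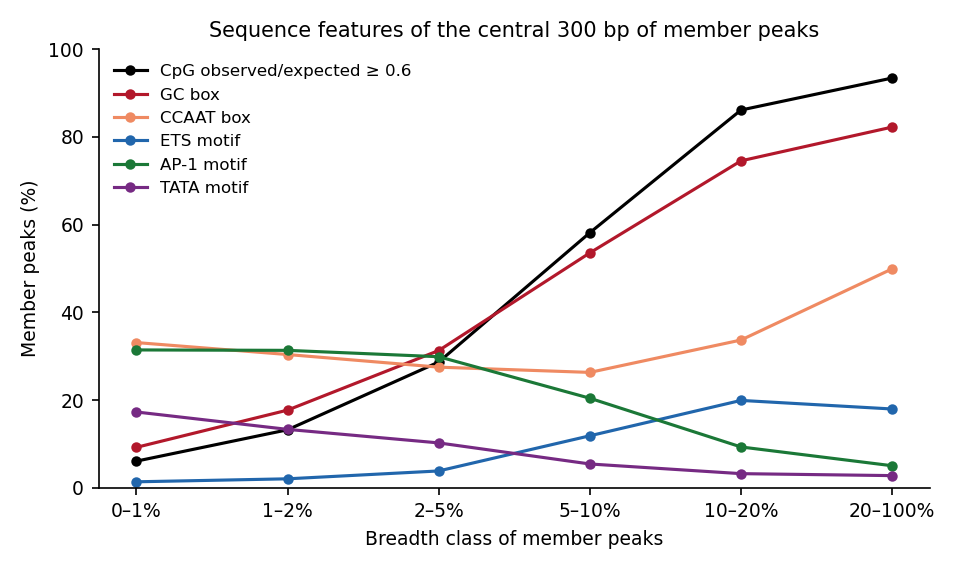
Percent of member peaks (vertical axis) with a CpG ratio of at least 0.6 or with a motif in the central 300 bp, by breadth class (horizontal axis). CpG-rich peaks rise from 6.09% to 93.4% from the narrowest to the broadest class, and AP-1 motifs fall from 31.4% to 5.04%.

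Motifs on either strand were counted in the same windows, and each is spelled with its letters except NRF1. The GC box GGGCGG was present in 9.23% of member peaks under 1% of nuclei and in 76.8% of those in at least 10%, against 16.7% of all peaks. The ETS motif CCGGAAG was present in 1.38% and 19.4%, with 3.11% of all peaks. The NRF1 motif, matched by its palindromic core, was present in 0.0619% and 2.77%, with 0.253% of all peaks. The AP-1 motif TGANTCA, which is known from enhancers, went the other way, from 31.4% to 8.06%, with 33.8% of all peaks. The TATA motif TATAAA was present in 17.3% and 3.10%, with 14.1% of all peaks. The CRE TGACGTCA was present in 0.378% and 3.83%, with 0.624% of all peaks. The CCAAT box was present in 32.8% of all peaks, and in 33.7% of member peaks with a breadth of 10 to 20% but 49.9% of those with 20% or more. Base composition also differed between these sets, and its part in these shares was not tested.

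Variation was read between the RNA clusters, which were not matched to the lines. The ATAC counts did not help to form the clusters. Their number follows from a rule that asked for at least 5. They held 4.99% to 37.9% of the nuclei, whereas the paper mixed the lines in equal cell numbers. For each cluster the ATAC counts of its nuclei were summed and expressed as CPM over all peaks. Peaks of at least 10 CPM in a cluster were assessed, which took in 20497 of the 45154 member peaks (45.4%). A peak counted as higher in 1 cluster when its CPM, with 1 added, was at least 4 times that of the next highest cluster. It counted as lower in 1 cluster when the next lowest had at least 10 CPM and at least 4 times as much. It counted as variable when the highest was at least 4 times the lowest.

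Of the 20497 member peaks, 848 (4.14%) were higher in 1 cluster, against 7.16% of all 44836 peaks assessed. Lower in 1 cluster were 241 (1.18%), against 1.22% of all peaks. Variable were 6353 (31.0%), against 47.9% of all peaks. A weak peak enters this count only through the cluster in which it is high, and such peaks had to differ. Of the 1355 member peaks assessed with a mean under 5 CPM, 97.4% were variable. Every peak with a mean of at least 10 CPM was assessed whatever its pattern, and among these 1.10% of 14554 member peaks and 2.75% of 9592 other peaks were higher in 1 cluster. Variable were 15.7% and 42.8%, respectively.

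The 2 kinds of member peak differed here as well. At a mean of at least 10 CPM, 10.6% of 11985 member peaks with a transcript start were variable and 39.3% of 2569 without one, beside 42.8% of the other peaks. In the range of 20 to 50 CPM these shares were 5.88%, 29.5% and 30.7%. Within every class of mean level from 10 CPM upwards, member peaks were variable less often than other peaks.

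**Figure D3:**
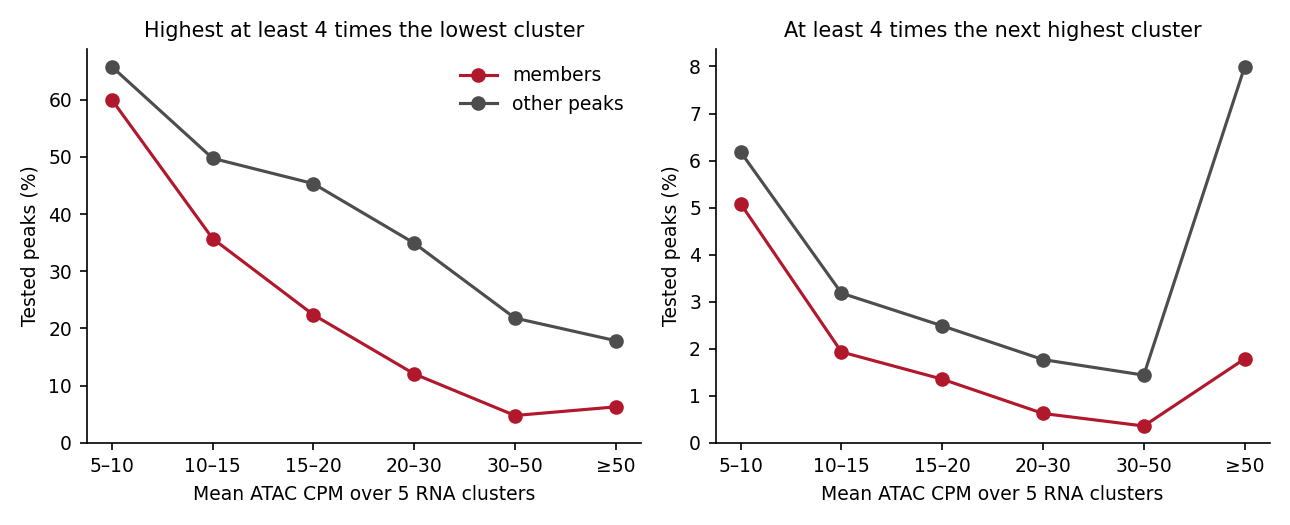
Percent of assessed peaks (vertical axes) that were variable, left, and higher in 1 RNA cluster, right, by mean ATAC CPM over the 5 clusters (horizontal axes), for member peaks and other peaks. The member peaks lie below the other peaks in all 5 classes from 10 CPM upwards, for example at 12.1% against 34.9% variable between 20 and 30 CPM.

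The broadest member peaks, in at least 10% of nuclei, were higher in 1 cluster in 40 of 8896 cases (0.450%) and variable in 6.96%. The choice by breadth sets this in part, since a peak found only in cluster 4, with 4.99% of nuclei, could not enter. The same shares for other peaks as broad are not given. At a mean of at least 10 CPM, 34.4% of 1483 member peaks near no coding gene were variable, and 13.5% of 13071 near a coding gene.

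By cluster, 72, 230, 297, 123 and 126 member peaks were higher in clusters 0 to 4. For all peaks the numbers were 283, 874, 1203, 472 and 380. The clusters differed in summed counts, from 3857591 in cluster 4 to 29126634 in cluster 0, and thinning all clusters to the smallest total gave 856 member peaks in place of 848. Doublet calls, nuclei whose RNA resembles a mix of 2 profiles, made up 0.552% of cluster 2 and 10.6% of cluster 3. Without the 385 called nuclei, 942 member peaks (4.52% of those assessed) were higher in 1 cluster, against 7.86% of all peaks. The part of doublets beyond these calls was not tested.

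In cluster 0, the HLA-DQB1 peak at its transcript start, chr6:32668036-32668948, had the highest ratio. HLA-DQB1 codes for a chain of the MHC class II molecule that presents antigen. Its ATAC level was 24.3 CPM in cluster 0 and 0.968, 1.07, 1.27 and 0.518 CPM in clusters 1 to 4, a ratio of 11.1 to the next highest with 1 CPM added to both. RNA of HLA-DQB1 was 61.7 CPM in cluster 0 and 4.92 to 6.66 CPM in the others. The other named peaks of cluster 0 held no transcript start. That of XXYLT1, a xylosyltransferase, lay in an intron and had 29.9 CPM in cluster 0 and at most 2.16 CPM elsewhere. That of IGF2BP3, an RNA-binding protein, had 27.7 CPM and at most 2.07 CPM elsewhere. The RNA of IGF2BP3 was at 239 CPM in cluster 0 and 247 CPM in cluster 4, so its RNA was not highest where the peak was. The DCAKD peak had 14.8 CPM and at most 0.792 CPM elsewhere.

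In cluster 1, an intronic peak in the interval of SOX9-AS1, a non-coding gene beside the factor SOX9, at chr17:72182926-72183772, had 56.6 CPM. In clusters 0, 2, 3 and 4 it had 1.79, 0.534, 1.27 and 1.30 CPM, a ratio of 20.7. The RNA of SOX9-AS1 itself was 2.16 CPM in cluster 1 and 1.88 CPM in cluster 3. The FGL1 peak, at a gene for a secreted liver protein, had 74.0 CPM in cluster 1 and at most 3.23 CPM elsewhere, and FGL1 RNA had 59.5 CPM there and at most 2.94 CPM elsewhere. A PDE4D peak 2749 bp from the nearest transcript start had 39.1 CPM in cluster 1 and at most 1.27 CPM elsewhere, with PDE4D RNA at 4072 CPM against at most 503 CPM. The SOGA3 peak held a transcript start and had 32.4 CPM, with at most 0.961 CPM elsewhere and no count in cluster 4, where 3 counts would be 0.778 CPM. SOGA3 RNA was 14.1 CPM in cluster 1 and 10.4 CPM in cluster 4, so the gene had RNA where the peak had no count.

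In cluster 2, the first was the start of the non-coding gene LINC02377, with 49.2 CPM against 1.34, 1.23, 1.27 and 0.778 CPM in clusters 0, 1, 3 and 4, a ratio of 21.5. LINC02377 RNA was 82.2 CPM in cluster 2 and at most 5.19 CPM elsewhere. The start of LINC02125 had 55.3 CPM and at most 1.96 CPM elsewhere, with RNA at 25.4 CPM against at most 0.876 CPM. The start shared by LIN28B, whose protein blocks the maturation of let-7 microRNAs, and LIN28B-AS1 had 35.5 CPM against at most 1.18 CPM, with LIN28B RNA at 164 CPM in cluster 2 and 37.4 CPM in cluster 1. An intronic MCTP2 peak had 69.4 CPM against at most 2.55 CPM.

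In cluster 3, all 4 named peaks held a transcript start on chromosome 19 at a gene of zinc finger type or its antisense partner. Zinc finger proteins of this family bind DNA, and many silence transposons. The ZNF135 peak, at chr19:58058978-58059816, had 59.4 CPM in cluster 3 and 0.687, 0.880 and 0.778 CPM in clusters 0, 1 and 4, with no count in cluster 2, a ratio of 32.1. ZNF135 RNA was 21.0 CPM in cluster 3 and at most 1.25 CPM elsewhere. ZSCAN18 had 56.9 CPM of ATAC against at most 2.07 CPM, ZNF556 had 71.4 CPM against at most 3.63 CPM, and ZNF350-AS1 had 25.9 CPM against at most 0.518 CPM. Their RNA was also highest in cluster 3, at 54.2, 32.5 and 11.2 CPM.

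In cluster 4, the peaks with the highest ratios lay close together on chromosome 7. The first was an EGFR peak at chr7:55130537-55131416, in an intron of the gene for the epidermal growth factor receptor. It had 286 CPM in cluster 4 and 7.31, 1.94, 1.82 and 8.23 CPM in clusters 0 to 3, a ratio of 31.1. The peak at the first EGFR start, chr7:55018616-55019491, had 459 CPM in cluster 4 and 32.2, 23.3, 15.7 and 31.4 CPM in clusters 0 to 3. EGFR had 35 member peaks, because its interval is 133321 bp long. Of the 32 assessed, 26 were higher in cluster 4, and 2 of the 35 held a transcript start. EGFR RNA was 7241 CPM in cluster 4 and 78.4 to 468 CPM elsewhere. The start of VOPP1, a neighbour of EGFR, had 265 CPM against at most 13.5 CPM, and the start of SEC61G, a subunit of the protein channel of the endoplasmic reticulum, had 774 CPM against at most 41.5 CPM. The fourth was the start of RASSF3 on chromosome 12, with 433 CPM against at most 26.1 CPM.

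The positions of these peaks were clustered. All 47 member peaks of chromosome 7 that were higher in cluster 4 lay between chr7:54758811-55594389, a stretch of 835 kb. Of the 53 assessed member peaks in it, 52 were highest in that cluster. This count is no separate support, because the 47 peaks set the ends of the stretch and are highest there by definition. Weak peaks were also assessed only through their highest cluster. On chromosome 12, 13 of 25 lay in a stretch of 359 kb that held RASSF3. More DNA copies and more open chromatin per copy cannot be told apart from these counts.

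**Figure D4:**
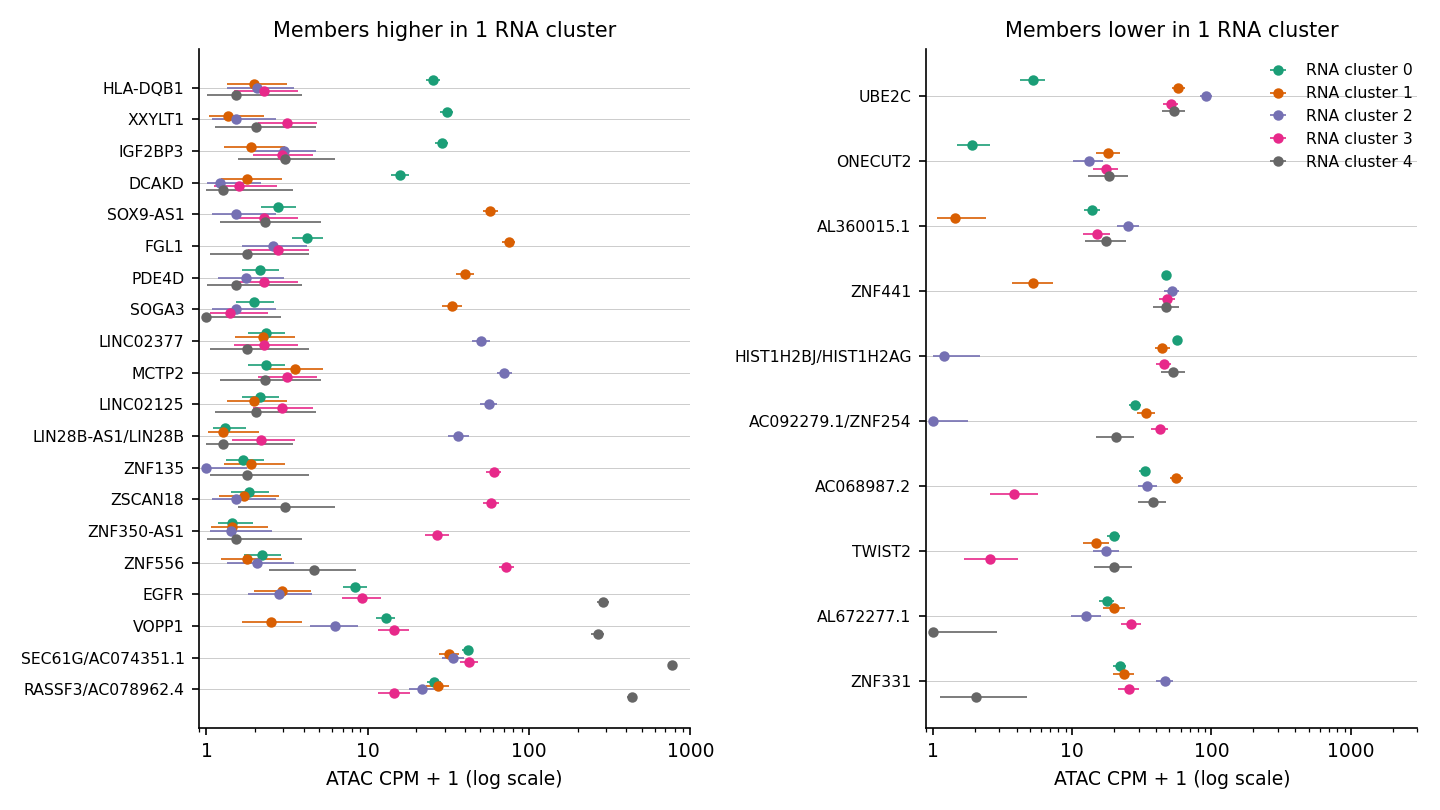
ATAC CPM with 1 added (horizontal axes, log scale) of the named member peaks in the 5 RNA clusters (points), with exact 95% Poisson intervals for counting error (bars), for peaks higher in 1 cluster, left, and lower in 1 cluster, right. In each row 1 cluster stands apart from the other 4, such as cluster 4 at 774 CPM for SEC61G and cluster 2 at 0.214 CPM for HIST1H2BJ and HIST1H2AG.

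By cluster, 12, 73, 125, 13 and 18 member peaks were lower in clusters 0 to 4. For all peaks the numbers were 21, 196, 266, 19 and 46. A lower peak needs at least 10 CPM in all other clusters and a higher peak in only 1, so the totals are not comparable. At a mean of at least 10 CPM, 241 (1.66%) of 14554 member peaks were lower in 1 cluster and 160 (1.10%) were higher. Of the 9592 other peaks, 3.16% were lower and 2.75% higher. The strongest of the lower member peaks was the start shared by the histone genes HIST1H2BJ and HIST1H2AG, chr6:27132434-27133335. It had 55.6, 43.5, 44.4 and 52.4 CPM in clusters 0, 1, 3 and 4 and 0.214 CPM in cluster 2, from 2 counts. The start of ZNF254 and AC092279.1 had no count in cluster 2, where 3 counts would be 0.320 CPM, and 19.7 to 41.5 CPM elsewhere. ZNF254 RNA was 1.83 CPM in cluster 2 and 39.5 to 84.9 CPM elsewhere.

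In cluster 1, the start of ZNF441 had 4.22 CPM and 46.4 to 50.9 CPM elsewhere, with RNA at 0.809 CPM against 2.25 to 7.86 CPM. In cluster 0, the start of UBE2C, a ubiquitin-conjugating enzyme of mitosis, had 4.22 CPM and 49.9 to 90.7 CPM elsewhere, and UBE2C RNA was also lowest there, at 27.5 CPM against 103 to 229 CPM. The start of ONECUT2, a homeobox factor, had 0.927 CPM in cluster 0 and 12.2 to 17.4 CPM elsewhere. In cluster 3, the start of TWIST2, a factor of mesenchymal cells, had 1.57 CPM and 14.0 to 18.9 CPM elsewhere, with RNA at 4.70 CPM against 15.8 to 43.8 CPM. An AC068987.2 peak had 2.84 CPM there and 32.3 to 55.2 CPM elsewhere. In cluster 4, a ZNF331 start had 1.04 CPM and 20.9 to 45.1 CPM elsewhere, and the AL672277.1 start had no count, where 3 counts would be 0.778 CPM, and 11.6 to 25.6 CPM elsewhere. An intergenic peak in the interval of AL360015.1 had 0.440 CPM in cluster 1 and 12.9 to 24.4 CPM elsewhere.

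Starts of zinc finger genes recurred among the low peaks, a set taken by symbol after these values were seen. Of 544 assessed member peaks with a transcript start near such a gene, 35 (6.43%) were lower in 1 cluster, against 1.00% of 13871 with no such gene near. On chromosome 19 the shares were 11.1% of 262 and 0.846% of 827. Cluster 1 had 23 of the 35 and cluster 2 had 10. Higher in 1 cluster were 9 (1.65%) of the 544, 7 of them in cluster 3, against 2.11% of the rest. On chromosome 19 these shares had the other order, with 7 of 262 (2.67%) against 13 of 827 (1.57%).

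Chromosome 8 had the highest share of assessed member peaks that were higher in 1 cluster (91 of 859, 10.6%), followed by chromosome 7 (8.41%). Chromosome 19 had the highest share lower in 1 cluster (42 of 1400, 3%). Over all 20497 assessed member peaks these shares were 4.14% and 1.18%. The shares over all peaks of a chromosome are not given, so the differences are not shown to be particular to member peaks. Of the 123 that were higher in cluster 3, 30 lay on chromosome 8 and 29 on chromosome 19. These chromosomes held 859 and 1400 of the 20497 assessed member peaks. Whole chromosomes differed between clusters too. The median log2 ratio of a cluster to the mean of the others ran from −0.70 for chromosome 13 in cluster 3 to 0.67 for chromosome 15 in cluster 1. When each cluster was centred on its median over all assessed peaks of a chromosome, 824 member peaks were higher in 1 cluster in place of 848. Such centring does not remove a difference that is limited to part of a chromosome.

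Genes could have member peaks that differed in their highest cluster. Of 699 genes with a member peak higher in 1 cluster, 27 had peaks that were higher in different clusters. In no gene did 2 peaks that both held a transcript start do so. Only a gene with at least 2 such peaks can enter either count. The number of these genes is not given, so the counts are no rates. At ITPR1, a calcium channel of the endoplasmic reticulum, a peak with a transcript start had 34.7 CPM in cluster 2 and another without one had 37.9 CPM in cluster 1. ITPR1 was picked out with these values known.

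The sequence of the peaks with a pattern was compared at a mean of at least 10 CPM, since weak peaks, which are less often CpG-rich, are assessed only through their highest cluster. With a transcript start, 61.2% of 67 such peaks that were higher in 1 cluster and 64.9% of 174 that were lower had a CpG ratio of at least 0.6, against 87.8% of all 11985. Without one the shares were 4.30% of 93 and 11.9% of 67, against 23.2% of 2569. The TATA motif was present in 13.4% of the 67 higher peaks with a transcript start and in 3.28% of the 11985. Mean level within these sets was not matched further. Over all levels, the AP-1 motif was present in 46.3% of the 123 peaks higher in cluster 3, 37.5% of the 72 in cluster 0 and 33.3% of the 126 in cluster 4. In clusters 1 and 2 it was present in 18.8% and 18.2%. The share was 25.2% of all member peaks and 33.8% of all peaks. Among assessed member peaks it was 8.34% with a transcript start and 42.5% without one. The sets of the clusters were not matched for transcript starts or for level.

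RNA followed the accessibility of the member peaks across genes. For each gene the counts of its member peaks were summed and set against its UMIs, over all nuclei. Spearman's rho was 0.61 and Pearson's r on the log2(CPM + 1) scale 0.60 over 22900 genes. Genes that share a peak share its counts, and among the 13688 genes whose member peaks lay near no other gene rho was 0.70. RNA and ATAC came from the same nuclei and so share depth. Genes are not replicates, and no p-value is given.

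**Figure D5:**
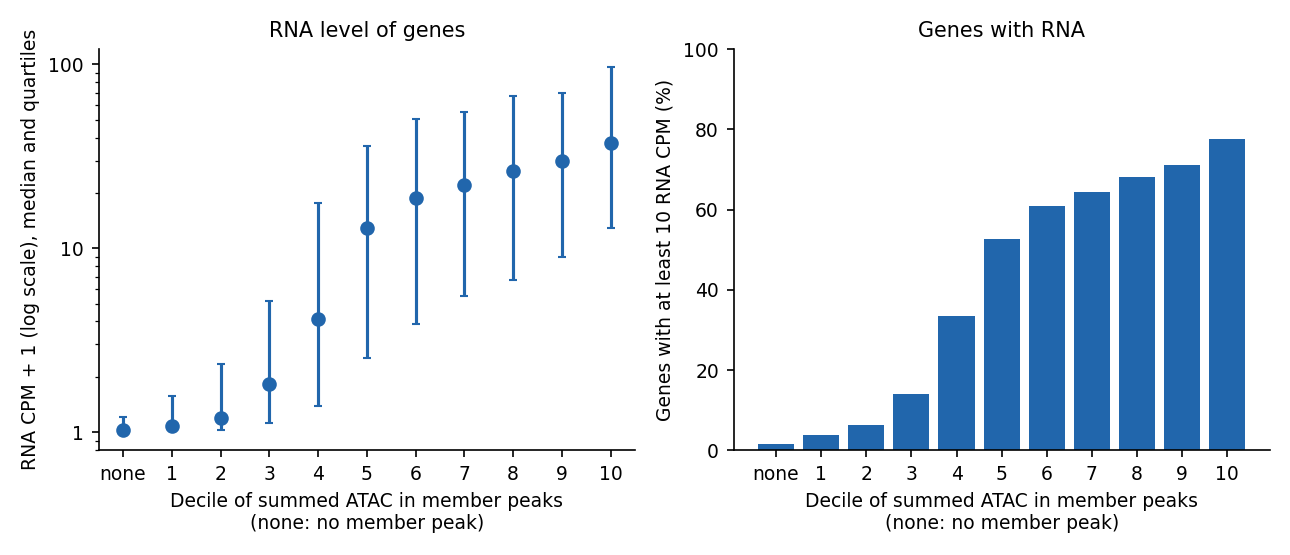
RNA of genes by decile of the summed ATAC CPM of their member peaks (horizontal axes, with genes without a member peak first), as the median and quartiles of RNA CPM with 1 added (left, log scale) and as the percent of genes with at least 10 RNA CPM (right). The percent rises from 1.48% without a member peak and 3.93% in the first decile to 77.6% in the last.

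The share of genes with at least 10 CPM of RNA went from 3.93% in the lowest decile of summed ATAC to 52.8% in the fifth and 77.6% in the highest. Median RNA went from 0.0838 CPM to 11.8 CPM and 36.6 CPM. In the third decile the share was 14.1% and the median 0.822 CPM. Genes on chromosomes without a member peak, a different set that is also 13688 in number, had a median of 0.0210 CPM, and 1.48% of them reached 10 CPM. Of the 10579 genes with at least 10 CPM of RNA, 10363 (98.1%) had a member peak, 13 were mitochondrial and 203 had none.

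Genes with accessibility but little RNA and genes with RNA but no member peak both occurred. A member peak in at least 10% of nuclei was found at 10884 genes, and 1262 of these had under 1 CPM of RNA. For 461 of the 1262, no other gene at the strongest peak reached 10 CPM either, and the others shared that peak with a gene that did. Among genes under 1 CPM, AC079313.2 had the most ATAC, with 222 CPM over 16 member peaks in an interval of 66125 bp, from 14 UMIs in all nuclei. AC011481.2 had 150 CPM of ATAC and 0.775 CPM of RNA and shares its peak with TOMM40, which had 87.4 CPM of RNA. AC010271.1 and AL451065.1 likewise shared theirs with SERTAD3 and CARD19. AC092720.1 had 149 CPM of ATAC from 15 peaks, the strongest of which it shared with ZCCHC14. HJV, a regulator of iron balance, had 127 CPM of ATAC from 4 member peaks and 0.147 CPM of RNA, and no other gene lay at its strongest peak.

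Among genes without a member peak, KRT81, a hair-type keratin, had the most RNA, at 510 CPM, with its nearest peak 2666 bp away. TANC2, a scaffold protein, had 244 CPM and its nearest peak at 6978 bp. KRT10, a keratin of the epidermis, had 185 CPM, DDT, a tautomerase, 148 CPM, and the gel-forming mucin MUC5AC 99.7 CPM. The non-coding SNHG14 had 94.9 CPM, with its nearest peak 12413 bp from an interval of 286872 bp. KRT81 and MUC5AC were among the 8 leading RNA genes of cluster 1.

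Where a member peak was higher in 1 cluster, RNA tended to be highest in the same cluster. The clusters were formed from the RNA, so this is a description. Of 538 such peaks near a single gene with at least 10 CPM of RNA in a cluster, 392 (72.9%) had the RNA of the gene highest there. Among assessed peaks near such a gene that were not higher in 1 cluster, the highest RNA and the highest ATAC fell in the same cluster for 46.8% of 11483. With a transcript start in the peak the share was 92.0% (150 of 163), and the median log2 ratio of RNA to the next cluster was 3.01. Without one it was 64.5% (242 of 375), with a median log2 ratio of 0.59. By cluster the shares were 66.7%, 70.4%, 69.3%, 75% and 85.6% in clusters 0 to 4, of 45, 142, 189, 72 and 90 peaks. These are shares of peaks and not of genes, since each peak of a gene is set against the same RNA. EGFR alone had 26 member peaks that were higher in cluster 4.

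Of all 848, 88 (10.4%) lay near no gene with 1 CPM of RNA in any cluster. Among peaks lower in 1 cluster, 93 lay near a single gene with at least 10 CPM in the other clusters, and 65 of them (69.9%) had the RNA lowest in the same cluster, though RNA was lower by 4 times in 15.

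Within 1 cluster the relation was close to absent in single nuclei. In cluster 0, 2277 genes had 1 member peak found in 10 to 90% of nuclei and at least 50 CPM of RNA. For each, RNA CPM in nuclei with a count in the peak was divided by that in nuclei without. The median ratio was 1.01, with quartiles of 0.985 and 1.05, and 61.1% of genes were above 1. Nuclei with a count were deeper, at medians of 12512.5 against 11261 ATAC counts and 16362 against 15184.5 UMIs, and the part of depth was not tested. A nucleus without a count at this depth can still have an open start.

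Genes of known roles were followed through lists, with all 36588 genes on chromosomes as the background, of which 62.6% had a member peak. Of the 17627 genes with an assessed member peak, 3.97% had one that was higher in 1 cluster, 1.6% one that was lower and 26.7% a variable one. A gene counts here through any of its member peaks, and the lists were not matched to all genes for number of peaks. All 11 housekeeping genes, such as VCP, C1orf43 and SNRPD3, had a member peak, with a breadth of the strongest peak from 8.53% to 30.9%. Of these, 0 had a member peak higher or lower in 1 cluster, against 3.97% and 1.6% of all genes, and 1 (GPI) had a variable one. GPI, an enzyme of glycolysis, had 15.9, 34.9, 18.6, 5.88 and 6.48 CPM of ATAC in clusters 0 to 4. Of 86 cytosolic ribosomal protein genes 84 had a member peak, with a median breadth of 17.1% among the 84, and RPL10L and RPL3L had none. The strongest was at RPS19, in 35.5% of nuclei. The RPS19 peak had 86.7, 185, 101, 33.7 and 53.9 CPM in clusters 0 to 4, the same order of clusters as for CIC, also on chromosome 19. RPL7 had 329 CPM in cluster 4 and 71.0 to 93.7 CPM elsewhere.

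Replication-dependent histone genes, which package newly made DNA, had less RNA than other genes with member peaks as broad. Of 71, 65 had a member peak, with a median breadth of 10.0% for the strongest, against 9.34% over all genes with one. In at least 10% of nuclei 33 (46.5%) had one, against 29.7% of all genes. These 33 had a median of 2.50 CPM of RNA, and 78.8% were under 10 CPM, against 30.5% of all 10884 genes with so broad a peak. The RNA libraries were made from polyA RNA, and most messages of these histone genes carry no poly(A) tail. Whether this lowered their RNA values here was not tested. Of the 56 histone genes with an assessed peak, 8 had one that was lower in 1 cluster, against 1.6% of all genes. A variable one was found at 23 (41.1%), against 26.7%. Of the 5 histone starts lower in 1 cluster, 4 were lowest in cluster 2 and 1, shared by HIST1H2BG and HIST1H2AE, in cluster 1 (2.64 CPM against 28.0 to 54.0 CPM). Olfactory receptor genes, which are used mainly in the nose, had a member peak in 24 of 381 cases (6.30%), with a breadth of at most 2.76%.

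Of 14 lung and foregut lineage genes, 12 had a member peak, SFTPC and SCGB1A1 being without one. Of the 7 that had an assessed peak, 6 had a variable one, against 26.7% of all genes. FOXA2, a pioneer factor of endoderm, had 16.5, 58.2, 0.534, 21.4 and 21.3 CPM of ATAC at its peak in clusters 0 to 4, and FOXA1 had 32.5, 32.5, 1.28, 16.4 and 58.3 CPM at its strongest. Both were lower in cluster 2, and their RNA there was 1.31 and 1.47 CPM. NKX2-1, the lung lineage factor, had 7.83, 3.34, 1.39, 8.43 and 15.3 CPM of ATAC, with RNA at 50.2, 2.43, 2.41, 43.6 and 75.3 CPM. The stronger of 2 SOX2 peaks was also lowest in cluster 2, at 1.28 CPM against 9.50 to 24.1 CPM. HNF4A, a liver and gut factor, had its strongest peak at 28.1 CPM in cluster 2, where its RNA was 0.262 CPM, and 16.1 CPM in cluster 1, where its RNA was 31.7 CPM. The HNF4A interval of 45602 bp had 8 member peaks, and another of them was higher in 1 cluster.

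Of 12 genes of epithelial and mesenchymal state, 11 had a member peak and 6 of the 10 with an assessed peak had a variable one, against 26.7% of all genes. ESRP1, an epithelial splicing regulator, had 3.71, 3.43, 3.74, 34.2 and 95.1 CPM of ATAC in clusters 0 to 4 and RNA at 2.70, 1.28, 0.628, 42.0 and 101 CPM. GRHL2, an epithelial factor, was at 10.1, 0.264, 3.10, 17.6 and 24.6 CPM, with RNA at 5.09, 1.01, 0.209, 62.2 and 86.3 CPM. CDH1, which codes for E-cadherin, had 4.19, 6.60, 7.58, 14.0 and 24.4 CPM of ATAC. VIM, which codes for the mesenchymal filament vimentin, had 33.3, 42.7, 51.3, 28.1 and 11.1 CPM. Each of ESRP1, GRHL2, CDH1 and VIM had 2 member peaks, and the ATAC values are those of the stronger one. Clusters 3 and 4 were the highest of the 5 for ESRP1, GRHL2 and CDH1, and cluster 4 the lowest for VIM, but other genes of the list had other orders. The strongest of 6 member peaks of the epithelial adhesion gene EPCAM was highest in cluster 1, at 59.9 CPM of ATAC. It had 27.4, 6.41, 20.8 and 32.7 CPM in clusters 0, 2, 3 and 4. EPCAM RNA was 112, 42.4, 23.4, 426 and 765 CPM in clusters 0 to 4, so its RNA was highest in cluster 4. CDH2, which codes for the mesenchymal N-cadherin, had 9 member peaks in an interval of 140546 bp. The strongest was highest in clusters 3 and 4, at 9.41 and 9.33 CPM, and at most 2.99 CPM elsewhere. This peak was under the 10 CPM needed to be assessed, and another CDH2 peak was higher in 1 cluster. CDH2 RNA was highest in cluster 1, at 51.0 CPM. The stronger of 2 member peaks of ZEB1, a mesenchymal factor, lay between 19.3 CPM in cluster 3 and 41.8 CPM in cluster 1. It was at 31.1 CPM in cluster 4. All 6 epithelial markers had a variable member peak, beside the 26.7% of all genes. KRT19 ranged from 0.641 CPM in cluster 2 to 33.4 CPM in cluster 4.

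Of 13 blood and vessel markers, CD14 and CDH5 had a member peak, and the other 11 had none. Their RNA ranged from 0 CPM for MS4A1 to 6.17 CPM for PECAM1. Of 4 fibroblast markers COL1A1 and COL1A2 had a member peak. COL1A1 was found in 20.2% of nuclei, and its RNA was 242 CPM in cluster 0 and 19.3 to 81.1 CPM elsewhere.

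All 18 lung adenocarcinoma genes had a member peak, 13 of them in at least 10% of nuclei, against 29.7% of all genes. Of the 16 with an assessed peak, EGFR and ALK had one that was higher in 1 cluster, against 3.97% of all genes, and 7 had a variable one, against 26.7%. EGFR had 35 member peaks, and ALK had 29 in an interval of 697687 bp. Of the 22900 genes with a member peak, 15475 had only 1, so these shares are not matched for number of peaks. The start of MTAP, an enzyme of methionine salvage, had 1.20, 35.8, 0, 14.4 and 38.9 CPM of ATAC in clusters 0 to 4, and RNA at 4.28, 51.4, 1.78, 104 and 299 CPM. In cluster 2, 3 counts would be 0.320 CPM. By contrast KEAP1, a sensor of oxidative stress, lay between 37.7 and 48.1 CPM in all clusters. BRAF, STK11, RB1 and NF1 had no variable peak. ROS1 had 27.1 CPM of RNA but a member peak in only 1.22% of nuclei.

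The 20% portion, a second library of the same mix and not a biological replicate, gave 1286 barcodes, of which 159 were also called in the 80% portion. The 1127 others were given the cluster whose mean RNA profile was most like theirs. Of the 848 member peaks, 714 overlapped a peak of the 20% portion, and 711 of these (99.6%) had the same cluster highest, 519 of them by at least 4 times. Of 240 lower peaks with a counterpart, 236 (98.3%) had the same cluster lowest. The EGFR intron peak had 230 CPM in cluster 4 of the 20% portion, and ZNF135 had 61.4 CPM in cluster 3. Of member peaks in at least 10% of nuclei 99.7% overlapped a peak called there, but only 16.9% of those under 1%. Over the 30136 member peaks with a counterpart, Spearman's rho of breadth between the portions was 0.99.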

How the data were processed

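Counts were deposited by the authors without normalization, as 1 matrix per portion made with Cell Ranger ARC 2.0.0 on GRCh38, per the file headers and the submitters' processing notes. RNA values are UMI counts per gene, and ATAC values are counts per peak and nucleus. Whether an ATAC count is a fragment or a fragment end is not stated. Of the nonzero ATAC values 90.1% were even, so Poisson intervals were computed on halved counts. The barcodes are those that had passed cell calling, and each matrix has its own peak set. The combined matrix of both portions and the long reads were not used here. No column of per-sample values (0) was left without a sample.

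Peak rows were joined to gene-start intervals of the same feature table with a gap of at most 1000 bp. Transcript starts came from GENCODE v44, and no peak (0) ran past the end of its hg38 chromosome. Nuclei were clustered on log-normalized UMIs with Seurat 5.3.0 in R 4.3.3 (2000 variable genes, 30 components, 20 neighbours, Louvain at the lowest resolution with at least 5 clusters, 0.02, random seed 0). Scrublet, run through scanpy 1.11.5, marked doublets (385 of 6557 nuclei, 5.87%), which were kept in the main values. CPM, correlations and exact intervals were computed in Python 3.11.15 with numpy 2.4.6 and scipy 1.17.1, and the sequence with pysam 0.24.0. CPM were computed from the summed nuclei, over all peaks for ATAC and over all genes for UMIs. UMIs count molecules and were not scaled by length. How reads were assigned between overlapping or antisense genes is not stated, so values of such genes are uncertain.

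The members and gene lists were chosen with earlier results of these data known. Genes are named by a fixed rule: the 6 broadest member peaks, the 4 highest and 2 lowest ratios per cluster, the 6 genes with most ATAC and under 1 CPM of RNA, the 6 with most RNA and no member peak, and the genes of the lists. A few items that this rule names are not reported here. Alternatives changed the window, the intervals, the filters on nuclei, the call thresholds, the scaling and the clustering.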

Additional observations from a re-analysis of the deposited data

How the results depend on the processing

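Of 34 alternative values, 20 stayed close to the value given and 14 did not. The limit was 1.5 times the value for a count and its 95% interval for a share or a correlation. Those intervals treat peaks or genes as independent, which they are not, so they served only as a yardstick. Some of the 14 differed little, and 1 of the 20 differed by almost the limit, with 1269 member peaks higher in 1 cluster for a minimum of 5 CPM. With intervals of at most 1000 bp only, 16686 peaks were members in place of 45154, and windows of 0, 500 and 2000 bp gave 40283 to 50017. Counting only nuclei with 3 or more counts in a peak left 121 member peaks in at least 10% of nuclei in place of 8896. The number of member peaks higher in 1 cluster, 848, became 2751 with a fold of 2, 237 with a fold of 8, 237 with a pseudocount of 5 CPM, 389 with a minimum of 20 CPM and 301 for peaks with a transcript start alone. Under each of these 4 settings of threshold the share of member peaks stayed below that of all peaks, for example 13.4% against 21.1% with a fold of 2 and 1.16% against 1.69% with the larger pseudocount. With 7 RNA clusters, an alternative added after seeing the data like that of transcript starts alone, it was 683. Spearman's rho between ATAC and RNA was 0.60 for the peak with the most counts, 0.70 for genes near no shared peak, 0.74 with genes without a member peak at 0, 0.57 with a window of 0 bp and 0.53 with transcript starts alone. The share of peaks with RNA highest in the same cluster, 72.7% over 836 peaks with any gene near, was 88.5% with transcript starts alone. In a central window of 500 bp 33.7% of member peaks had a CpG ratio of at least 0.6, against 34.1% in 300 bp. No paired analysis was possible because each portion has 1 library of each kind and the labels number no replicates.

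With 1 library per kind no difference has a replicate check, and the 2 portions come from the same mix. Breadth depends on depth, and a nucleus without a count is not shown to be closed. Clusters were not matched to lines by genotype. The intervals printed for single peaks cover counting error only.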
